A study of Arabidopsis thaliana with 18 samples.

Results

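Described here are 6 genes of Arabidopsis thaliana, the late embryogenesis abundant (LEA) genes LEA4-5, AtLEA4-1, LEA18 and AT3G02480 and the cold-regulated (COR) genes COR47 and COR15A. They were chosen by their measured intensities, because earlier results of these arrays showed them below Col-0 in both mutants, so their mutant against Col-0 values are a description and carry no test. A probe set was taken for a gene if its annotation names that gene alone, which gave 1 probe set for each and 6 of the 22746 non-control probe sets in all. All 6 passed the filter on dim probe sets, as did 17125 probe sets overall. LEA4-5 exceeded the filter's intensity of 16 on 2 of 6 sav1-1, 1 of 6 sav3-2 and 6 of 6 Col-0 arrays, and AT3G02480 did so on 4, 5 and 6; the filter asked for 3 arrays of any group. The other 4 genes exceeded it on all 18 arrays.

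The arrays measured total RNA of whole seedlings, 7 days old, from the mutants sav1-1 and sav3-2 and from Col-0, the ecotype that the labels give for all 3 genotypes. Every seedling was raised at 22 °C on Murashige Skoog medium under mixed red (13 µmol m-2 s-1) and blue (1.23 µmol m-2 s-1) light. Arrays labelled SH came from seedlings that then received 1 h of low red to far-red ratio (R:FR 0.7, far-red 20.2 µmol m-2 s-1), and arrays labelled Wc from seedlings left in the white light mixture. The 6 groups, sav1-1 SH, sav1-1 Wc, sav3-2 SH, sav3-2 Wc, Col-0 SH and Col-0 Wc, had 3 arrays each, which the series design calls independent biological replicates. SAV3 is the auxin synthesis enzyme TAA1, for which no probe set was analysed here, and the sources used here do not say which gene sav1-1 disrupts. Each mutant is represented by 1 allele, so an effect of the allele and of other differences between the lines cannot be told apart.

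LEA proteins are small, hydrophilic and largely unstructured proteins that build up in drying seeds and, in seedlings and leaves, during drought, salt stress and cold. They are known for keeping enzymes and membranes intact when water is lost. Many LEA genes are switched on by abscisic acid, and COR genes by the CBF transcription factors of the cold response, so both serve as readouts of water and cold stress in vegetative tissue.

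Intensities are given after quantile normalization of the deposited linear values, and log2 values are log2(intensity + 16), a scale that cannot go below 4 and understates differences of dim probe sets. Before normalization the array medians lay between 34.4 and 65.6, and the lowest and highest correlations between arrays of one group were 0.973 and 0.987. Of the measured shade markers, 5 of 5 rose after low R:FR in sav1-1, 3 of 5 in sav3-2 and 5 of 5 in Col-0 (limma, adjusted p under 0.05). HAT2 and IAA29 were among them in every genotype. Over all kept probe sets 1.85%, 0.806% and 1.12% were called in either direction. The marker list was chosen with earlier results of these arrays known, so it is no independent check of the light labels. None of 6 leaf markers and none of 14 seed maturation genes on the marker lists is named by a probe set used here, so the whole-seedling label and any seed-like programme were not checked with them. Of 9 root markers, the root hair expansins EXPA7 and EXPA18 were measured, with group means of 5.43 to 6.22 and 5.70 to 6.24 on the log2 scale. Their differences from Col-0 were 0.19 to 0.40 in sav1-1 and -0.30 to -0.17 in sav3-2, and limma called 0 of 2 in each mutant and light, with 1 and 2 of 2 at an unadjusted p under 0.05 in sav1-1 after low R:FR and in white light and 0 in sav3-2. Such an unadjusted p was found for 1397 and 1210 of the 17125 kept probe sets in sav1-1 after low R:FR and in white light. In sav3-2 it was found for 1860 and 1286. The part of root content in the values below was not tested. In whole seedlings, fewer cells of one type and less RNA per cell cannot be told apart.

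LEA4-5, AtLEA4-1 and LEA18 are the group 4 LEA proteins, a family whose members are induced together by water deficit. In the next paragraphs the 3 intensities of a group are those of replicates 1, 2 and 3.

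LEA4-5 was the dimmest of the 6, at the 8.65 percentile of mean log2 intensity among all kept probe sets. Its intensities were 1.98, 7.75 and 18.6 in sav1-1 after low R:FR and 0.962, 18.3 and 14.3 in sav1-1 in white light. In sav3-2 they were 2.98, 16.8 and 6.66 after low R:FR and 4.49, 6.12 and 14.1 in white light. Col-0 gave 37.7, 34.5 and 46.3 after low R:FR and 25.1, 53.5 and 31.4 in white light. Each mutant array lay below each Col-0 array, and most mutant arrays lay below the filter's intensity, so the mutants' levels of LEA4-5 are close to the lower end of what these arrays measured. On the log2 scale sav1-1 differed from Col-0 by -1.17 after low R:FR and by -0.98 in white light (SE 0.29 each), and sav3-2 by -1.19 and -1.10. With a pseudocount of 1 in place of 16, the same 4 differences of LEA4-5 were -2.33, -2.10, -2.30 and -2.09, so their size is set in large part by the scale.

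AtLEA4-1 was better measured, at the 45.1 percentile of brightness. Its intensities in sav1-1 were 47.6, 81.3 and 49.6 after low R:FR and 43.9, 73.6 and 60.7 in white light. For sav3-2 they were 59.5, 59.3 and 48.7 after low R:FR and 51.5, 54.1 and 86.3 in white light, against 111, 136 and 98.9 after low R:FR and 147, 168 and 100.3 in white light in Col-0. The 12 mutant arrays all lay below the 6 Col-0 arrays, and the nearest values were those of sav3-2 and Col-0 replicates 3. Mean intensity over 6 arrays was 59.5 in sav1-1, 59.9 in sav3-2 and 127 in Col-0, which put Col-0 2.14 and 2.12 times above sav1-1 and sav3-2. The log2 differences from Col-0 were -0.82 after low R:FR and -1.03 in white light for sav1-1, and -0.86 and -0.95 for sav3-2 (SE 0.20 each).

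LEA18 stood at the 36.7 percentile of brightness. The sav1-1 arrays gave 36.3, 57.3 and 41.7 after low R:FR and 43.2, 46.4 and 32.3 in white light, and the sav3-2 arrays 47.8, 46.3 and 44.9 after low R:FR and 47.0, 45.9 and 37.3 in white light. Col-0 arrays gave 111, 108 and 66.0 after low R:FR and 102, 107 and 80.0 in white light. All mutant arrays again lay below all Col-0 arrays, and the lowest Col-0 values in both lights were those of replicate 3. The group SD on the log2 scale was 0.033 in sav3-2 after low R:FR against 0.36 in Col-0 after low R:FR (n = 3 each). LEA18 differed from Col-0 by -0.85 and -0.99 in sav1-1 and by -0.81 and -0.91 in sav3-2, after low R:FR and in white light (SE 0.17 each).

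AT3G02480, a gene of another LEA family, gave 15.1, 14.4 and 20.4 in sav1-1 after low R:FR and 18.9, 65.5 and 22.0 in white light. In sav3-2 the intensities were 13.9, 38.1 and 19.7 after low R:FR and 19.3, 19.5 and 30.2 in white light. Col-0 had 61.8, 66.6 and 119 after low R:FR and 50.3, 163 and 105 in white light. After low R:FR no mutant array reached a Col-0 array, whereas in white light sav1-1 replicate 2 lay above Col-0 replicate 1. The differences from Col-0 were -1.55 after low R:FR and -1.24 in white light in sav1-1 and -1.30 and -1.54 in sav3-2 on the log2 scale (SE 0.32 each). Its spread within groups was at the 99.2 percentile of all kept probe sets.

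COR47 is an acidic dehydrin, a LEA protein with lysine-rich segments that bind membranes, and was by far the brightest of the 6, at the 97.8 percentile. Its intensities in sav1-1 were 1825, 1651 and 1363 after low R:FR and 2042, 1579 and 1412 in white light. The sav3-2 arrays had 1679, 1874 and 1750.3 after low R:FR and 1941, 1685 and 1945 in white light, against 2259.7, 2105 and 2275 after low R:FR and 2732, 2180.3 and 2254 in white light in Col-0. Mutant and Col-0 arrays did not overlap, and the gap was narrow beside that of the LEA4 genes: the highest mutant array, sav1-1 replicate 1 in white light, stood at 2042 and the lowest Col-0 array at 2105. On the log2 scale COR47 differed from Col-0 by -0.46 and -0.52 in sav1-1 and by -0.32 and -0.36 in sav3-2, after low R:FR and in white light (SE 0.13 each). Without normalization between arrays the differences of COR47 after low R:FR were -0.19 in sav1-1 and -0.13 in sav3-2, on a scale where the median over all probe sets stood at 0.22 and 0.17. On that scale mutant and Col-0 arrays of COR47 overlapped.

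COR15A encodes a chloroplast protein of the LEA type that stabilises membranes during freezing. Its intensities were 32.0, 21.0 and 17.2 in sav1-1 after low R:FR and 44.3, 22.2 and 19.6 in white light, and 33.0, 34.8 and 27.4 in sav3-2 after low R:FR and 61.1, 62.6 and 29.5 in white light. Col-0 had 185, 54.5 and 82.6 after low R:FR and 388, 57.2 and 101 in white light. All sav1-1 arrays lay below all Col-0 arrays, and so did sav3-2 after low R:FR, but in white light sav3-2 replicates 1 and 2 lay above Col-0 replicate 2. The log2 differences from Col-0 were -1.52 after low R:FR and -1.80 in white light in sav1-1 and -1.23 and -1.22 in sav3-2 (SE 0.42 each). Much of the difference in white light rested on Col-0 replicate 1: without that array COR15A differed by -1.09 in sav1-1 and by -0.51 in sav3-2. Without Col-0 SH replicate 1 the differences after low R:FR were -1.09 and -0.81.

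**Figure D1:**
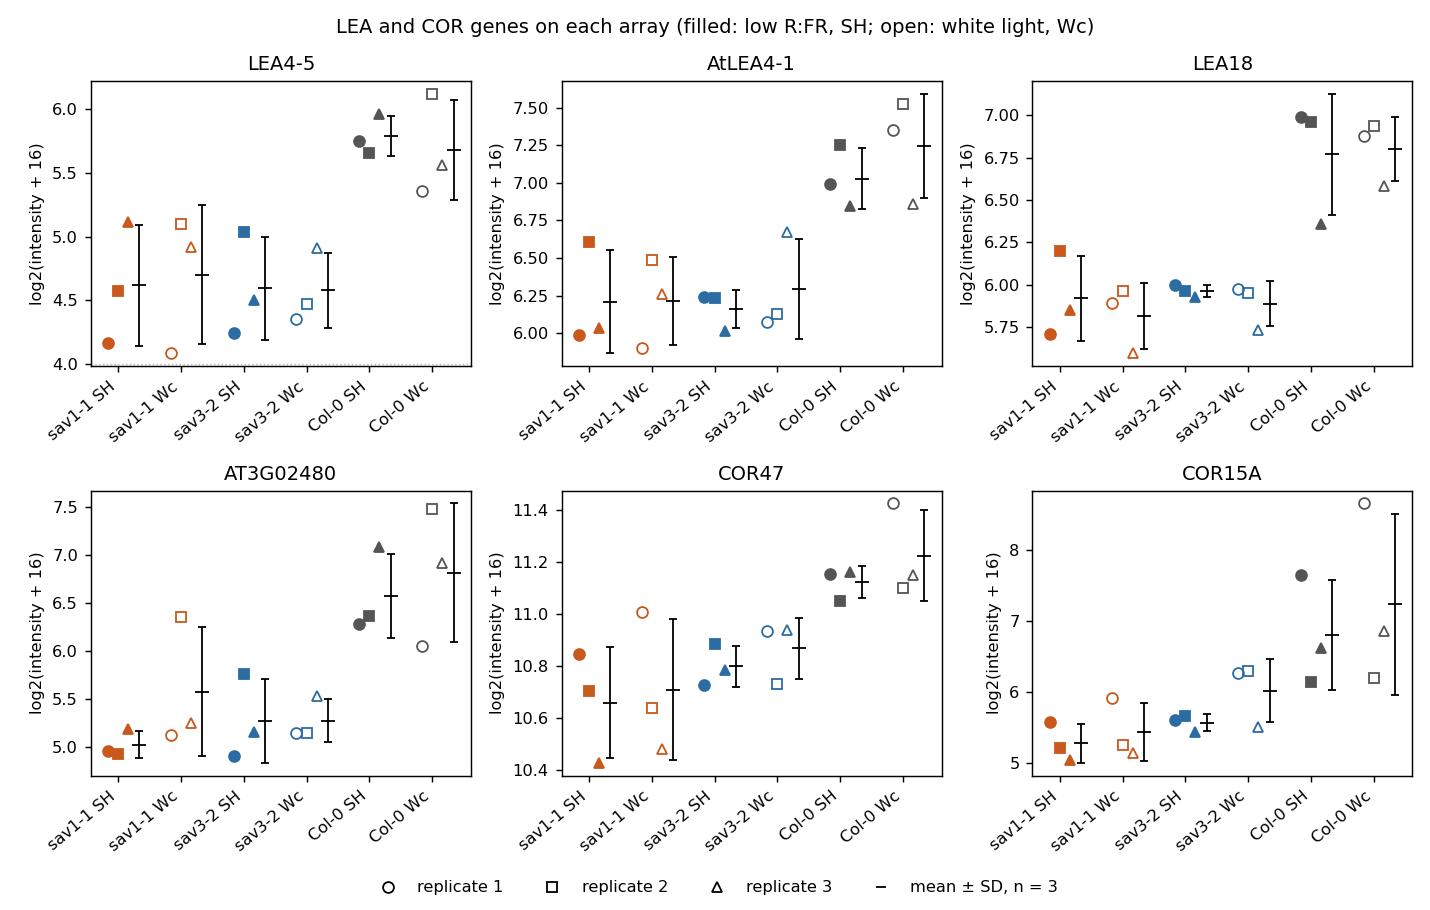
Log2(intensity + 16) of the 6 genes on each of the 18 arrays, by group, with replicates 1, 2 and 3 as circles, squares and triangles and the mean ± SD (n = 3) as bars. Filled symbols are low R:FR (SH) and open symbols white light (Wc); for LEA4-5, AtLEA4-1, LEA18 and COR47 every orange and blue symbol lies below every grey one, while COR15A in Col-0 is spread from 6.14 to 8.66.

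Counted over genes, 4 of the 6, LEA4-5, AtLEA4-1, LEA18 and COR47, had every array of both mutants below every Col-0 array. That rule pools the 2 lights, so arrays are also set against each other across lights. Of all kept probe sets, 0.169% met it, while the single comparisons below stay within 1 light. All counts in this paragraph are for quantile normalized values. In the values as deposited, COR47 and AtLEA4-1 did not meet the rule. COR47 had 1579 in Col-0 SH replicate 2 and 2197 in sav3-2 SH replicate 3. AtLEA4-1 had 85.1 in Col-0 SH replicate 3 and 88.8 in sav3-2 Wc replicate 3. For sav1-1 alone the count was 5, all but AT3G02480 (0.683% of all kept probe sets), and for sav3-2 alone 5, all but COR15A (0.742%). In single comparisons it was 6 of 6 for sav1-1 and for sav3-2 after low R:FR (7.24% and 7.53% of all kept probe sets) and 5 of 6 for each in white light (6.11% and 5.89%). These counts describe how the genes were chosen and support nothing further. With same-numbered arrays set against each other, the mutant array was below the Col-0 array in 12 of 12 pairs for all genes except COR15A, which had 11, and the exception was sav3-2 replicate 2 in white light, 0.10 above Col-0. Of all kept probe sets, 1.43% were below in all 12 pairs and 3.74% in at least 11.

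The median log2 difference of the 6 genes was -1.01 for sav1-1 after low R:FR and -1.01 for sav1-1 in white light, and -1.03 for sav3-2 in either light, beside medians over all kept probe sets between -0.00102 and 0.00746. Ordered by group mean, both Col-0 groups stood above all 4 mutant groups for each of the 6 genes. The step between the lower Col-0 group and the higher mutant group was 0.98 for LEA4-5, 0.81 for LEA18, 0.73 for AtLEA4-1 and 0.25 for COR47, each larger than the SD of either neighbour and with no array overlap. For AT3G02480 the step of 1.00 was larger than the SD of 0.67 but its arrays overlapped, and for COR15A the step of 0.78 was about the SD of 0.77, also with overlap. The 6 genes were chosen for this gap on the same arrays, so the order and the steps are a description and no test. The share of all kept probe sets with such an order or step was not counted. The pair of Col-0 groups did not differ beyond its spread for any of the 6 genes, and neither did neighbouring mutant groups for LEA4-5, AtLEA4-1, LEA18 and COR47. For AT3G02480 the lowest pair, sav1-1 after low R:FR and sav3-2 in white light, was 0.25 apart with an SD of 0.22, and for COR15A sav3-2 after low R:FR and in white light were 0.45 apart with an SD of 0.45, and in both cases the arrays overlapped.

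**Figure D2:**
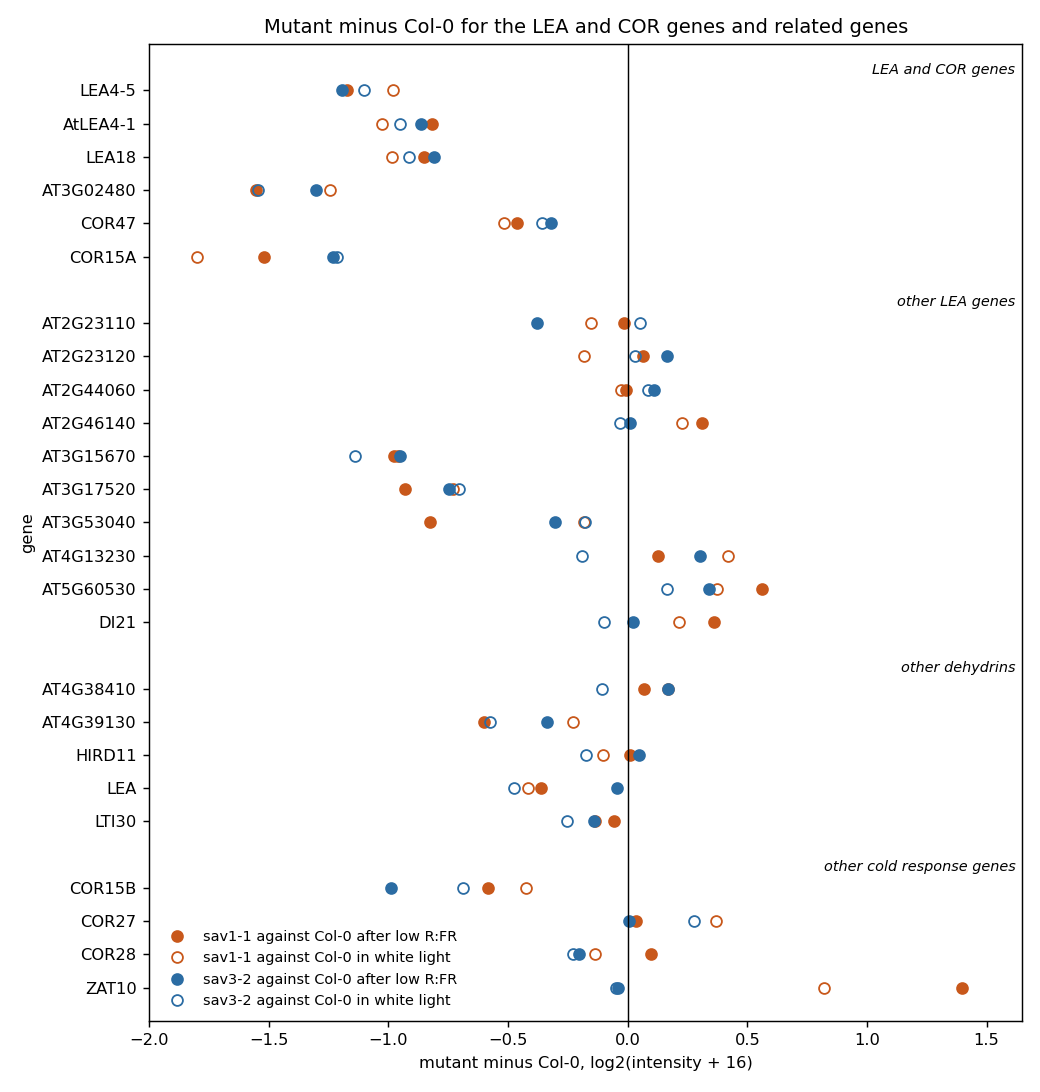
Mutant minus Col-0 on the log2(intensity + 16) scale for the 6 genes and for 19 measured related genes, with sav1-1 in orange and sav3-2 in blue, low R:FR filled and white light open. The 6 genes at the top lie between -1.80 and -0.32. Many related genes lie near 0, but AT3G15670 and AT3G17520 lie between -1.14 and -0.71. COR15B lies inside the range of the 6 genes in each mutant and light. AT3G53040 and AT4G39130 are among the genes that reach into that range in some comparisons. ZAT10 lies at 1.40 and 0.82 in sav1-1.

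Whether low R:FR itself moved these genes is a separate question, which the choice of genes did not use, although the comparisons share arrays with those it did use. After 1 h of low R:FR, limma called 0 of 6 genes in sav1-1, 0 of 6 in sav3-2 and 0 of 6 in Col-0, and none had an unadjusted p under 0.05. Over all kept probe sets 1.85% were called in sav1-1, 0.806% in sav3-2 and 1.12% in Col-0. An unadjusted p under 0.05 was found for 1456, 1428 and 1391 of the 17125 kept probe sets in these genotypes. The lowest adjusted p of the 6 genes was 0.74 in sav1-1, 0.86 in sav3-2 and 0.90 in Col-0. The median response of the 6 genes was -0.07 in sav1-1, -0.03 in sav3-2 and -0.16 in Col-0, against -0.01 over all kept probe sets in each genotype.

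COR47, the most precisely measured, changed by -0.05 in sav1-1 (95% confidence interval -0.31 to 0.21), -0.07 in sav3-2 (-0.33 to 0.19) and -0.10 in Col-0 (-0.37 to 0.16). LEA18 stood at 0.10 in sav1-1 (-0.25 to 0.45), 0.07 in sav3-2 (-0.27 to 0.42) and -0.03 in Col-0 (-0.38 to 0.32). For COR47 and LEA18 these intervals exclude a change of 0.5 in either direction. AtLEA4-1 gave -0.01, -0.13 and -0.22 and LEA4-5 -0.09, 0.02 and 0.11 in sav1-1, sav3-2 and Col-0, with intervals that lie between -0.63 and 0.41 for AtLEA4-1 and between -0.68 and 0.70 for LEA4-5. The intervals of AT3G02480 and COR15A were wider still: AT3G02480 in sav1-1 was -0.55 (-1.22 to 0.12; -0.16 without sav1-1 Wc replicate 2), and COR15A was -0.16 (-1.04 to 0.72) in sav1-1, -0.45 (-1.33 to 0.43) in sav3-2 and -0.44 (-1.32 to 0.45) in Col-0. No interval of the 18 excluded 0.

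COR15A was the one gene of the 6 that was lower after low R:FR in 9 of 9 same-numbered pairs, as were 2.26% of all kept probe sets. Its pair differences ran from -1.01 to -0.05 on the log2 scale with a median of -0.25, and the largest was that of Col-0 replicate 1. With the replicate number as a block, limma gave COR15A adjusted p-values of 0.91 in sav1-1, 0.63 in sav3-2 and 0.70 in Col-0. Leaving out Col-0 Wc replicate 1 put the COR15A response of Col-0 at 0.27. For the remaining genes, between 2 and 6 of 9 pairs were lower after low R:FR.

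**Figure D3:**
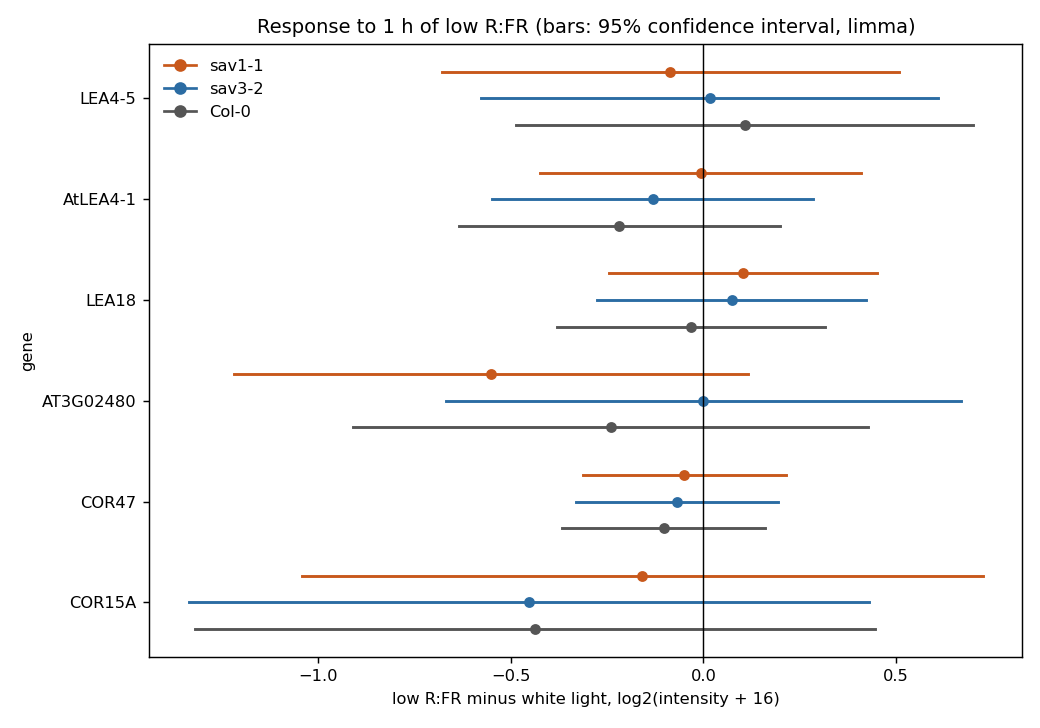
Response to 1 h of low R:FR (low R:FR minus white light, log2(intensity + 16)) of the 6 genes in sav1-1, sav3-2 and Col-0, as the limma estimate with its 95% confidence interval. All 18 intervals include 0, and they are narrowest for COR47 and widest for COR15A.

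The mutants were also set against each other. This contrast was not itself used in the choice, but the choice used the same mutant arrays and favours genes that are low in both mutants, so a count of 0 here is no independent evidence that the mutants are alike. Of the 6 genes 0 were called between sav1-1 and sav3-2 after low R:FR and 0 in white light. None had an unadjusted p under 0.05. In these 2 lights limma called 1.31% and 0.66% of all kept probe sets. An unadjusted p under 0.05 was found for 1528 and 1490 of the 17125. The differences of sav1-1 minus sav3-2 farthest from 0 were those of COR15A in each light, -0.29 after low R:FR (95% confidence interval -1.17 to 0.59, adjusted p = 0.93) and -0.58 in white light (-1.47 to 0.30, adjusted p = 0.77). COR47 differed by -0.14 (-0.40 to 0.12) and -0.16 (-0.42 to 0.10). COR15A, COR47 and LEA18 were the genes with estimates below 0 in both lights. LEA18 differed by -0.04 (-0.39 to 0.31) after low R:FR and -0.07 (-0.42 to 0.28) in white light, AtLEA4-1 by 0.05 (-0.37 to 0.46) and -0.08 (-0.49 to 0.34), and LEA4-5 by 0.02 (-0.57 to 0.61) and 0.12 (-0.47 to 0.72). AT3G02480 was at -0.25 (-0.92 to 0.42) after low R:FR and at 0.30 (-0.37 to 0.97) in white light, and without sav1-1 Wc replicate 2 the AT3G02480 difference in white light was -0.09. Without sav3-2 SH replicate 2 the difference of AT3G02480 after low R:FR was -0.01. A p that misses the threshold does not show that both mutants hold these genes at the same level.

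The difference in shade response between genotypes was called for 0 of the 6 genes in each of 3 interaction contrasts, none at an unadjusted p under 0.05. Among all kept probe sets, 0.0409% were called for sav1-1 against sav3-2, 0% for sav1-1 against Col-0 and 0.0409% for sav3-2 against Col-0. In the same order, 533, 431 and 682 of the 17125 kept probe sets had an unadjusted p under 0.05. The estimate farthest from 0 was that of AT3G02480 for sav1-1 against sav3-2, -0.55 with an interval from -1.49 to 0.39. This AT3G02480 value was -0.16 without sav1-1 Wc replicate 2, -0.31 without sav3-2 SH replicate 2 and 0.19 without all arrays numbered 2.

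The 6 genes varied together across the 18 arrays, largely through the gap between the mutants and Col-0, with r from 0.45 for LEA4-5 and COR15A to 0.91 for LEA4-5 and AT3G02480. Over deviations from group means on the 18 arrays, r ran from -0.64 to 0.76. LEA4-5 and AT3G02480 had an r of 0.76, COR47 and COR15A of 0.58, AtLEA4-1 and LEA18 of 0.45, LEA4-5 and AtLEA4-1 of 0.43, and AtLEA4-1 and AT3G02480 of 0.23. The lowest values were those of AT3G02480 and COR15A (-0.64), LEA4-5 and COR47 (-0.58) and LEA4-5 and COR15A (-0.55). These values are descriptions over arrays that share replicate numbers, and the members were chosen together.

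For 4 of the 6 genes the deviations lay on one side at a replicate number. For COR15A all 6 arrays numbered 1 were above their group means, by 0.04 to 1.42 on the log2 scale, and all 6 numbered 3 were below, by -0.52 to -0.13. LEA4-5 and AT3G02480 went the other way at replicate 1, where all 6 arrays were below their group means, on average by -0.33 and -0.35, and LEA18 had all 6 arrays below at replicate 3. AtLEA4-1 and COR47 had arrays on both sides at every number, and at replicate 2 none of the 6 genes was one-sided. Of all kept probe sets, 9.05% had all 6 arrays numbered 1 on one side, 7.67% those numbered 2 and 13.3% those numbered 3. Each of these shares is for 1 number alone. The share that is one-sided at any number was not counted, so the 4 of 6 genes have no matching share here. What the replicate number marks is not stated in the labels, and its part in the values of these genes was not tested beyond the fits with the number as a block. The mutant against Col-0 differences kept their sign for all 6 genes when the 6 arrays of any one number were left out. The genes were chosen for these differences on the same arrays, so the kept sign is no independent support.

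**Figure D4:**
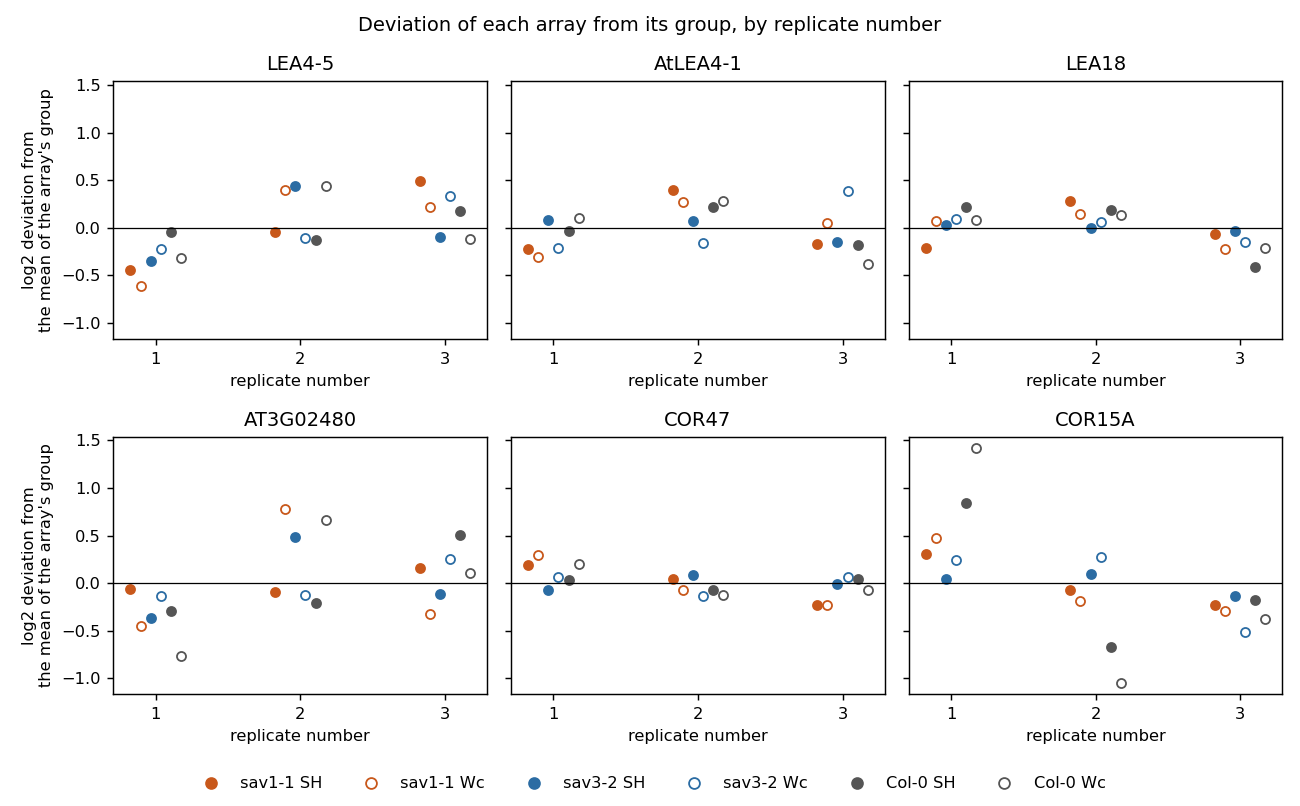
Deviation of each array from the mean of its own group, in log2(intensity + 16), plotted by replicate number for the 6 genes; colours are genotypes, filled symbols low R:FR and open symbols white light. COR15A lies above 0 on all 6 arrays numbered 1 and below 0 on all 6 numbered 3, while LEA4-5 and AT3G02480 lie below 0 on all 6 numbered 1.

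Other genes of the same families and of the cold pathway were taken from 3 lists, 9 further dehydrins, 31 further LEA genes and 27 genes of the cold response and the CBF pathway. Of these 67 genes, 5, 10 and 4 were measured by a kept probe set that names them alone. Of the 19, 11 exceeded the filter's intensity on all 18 arrays, and 6 would not have passed the filter without Col-0. Among the 11, limma called 1 in sav1-1 against Col-0 after low R:FR and 0 in sav1-1 in white light, in sav3-2 after low R:FR and in sav3-2 in white light, and no other gene of the 19 was called. At an unadjusted p under 0.05, 4 of the 11 were above Col-0 in sav1-1 after low R:FR and 2 in sav1-1 in white light, and 1 was below Col-0 in sav3-2 after low R:FR. Over all kept probe sets 0.204%, 0.0934%, 1.03% and 0.479% were called in these comparisons. Those shares are for adjusted calls. An unadjusted p under 0.05, in either direction, was found for 1397 and 1210 of the 17125 kept probe sets in sav1-1. For sav3-2 the numbers were 1860 and 1286, each after low R:FR and in white light. The medians of the 11 were 0.06, -0.03, 0.01 and -0.05, beside medians near 0 for all kept probe sets. The gene called was ZAT10, a zinc finger repressor induced by cold, drought and other stresses, and it rose: its intensities were 184, 104 and 223 in sav1-1 and 45.0, 42.7 and 71.9 in Col-0 after low R:FR, a difference of 1.40 (SE 0.22, limma adjusted p = 0.00774). The sav1-1 arrays of ZAT10 all lay above the Col-0 arrays, and over the sav3-2 arrays, which had 35.8, 51.8 and 66.7, ZAT10 rose by 1.44 (adjusted p = 0.00075). The call against Col-0 was lost without sav1-1 SH replicate 1 (adjusted p = 0.0685), sav1-1 SH replicate 3 (0.0553) or Col-0 SH replicate 2 (0.0537). In white light ZAT10 stood at 0.82 in sav1-1 against Col-0 (adjusted p = 0.23, and 0.011 with the replicate block), and its difference between low R:FR and white light in sav1-1 was 0.60 (0.32, and 0.037 with the block). The others of the 4 above Col-0 in sav1-1 after low R:FR were LEA genes, AT5G60530 at 0.56, DI21 at 0.36 and AT2G46140 at 0.31, with adjusted p-values of 0.30, 0.47 and 0.53.

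Among the further LEA genes, AT3G15670 and AT3G17520 had the values nearest to those of the 6 genes, and they are named here after their values were seen. AT3G15670 differed from Col-0 by -0.97 after low R:FR and -0.96 in white light in sav1-1 and by -0.95 and -1.14 in sav3-2. AT3G17520 differed by -0.93 and -0.73 in sav1-1 and by -0.75 and -0.71 in sav3-2. Both passed the filter only through Col-0, where they are higher, with 0 of 12 mutant and 4 of 6 Col-0 arrays above it for AT3G15670 and 1 and 6 for AT3G17520, so these differences are given without a test. The dim dehydrin gene AT4G39130, at -0.60 and -0.23 in sav1-1 and -0.34 and -0.58 in sav3-2, also needed Col-0 to pass. AT3G53040, which had 3 mutant and 4 Col-0 arrays above the filter, stood at -0.82 in sav1-1 after low R:FR (limma adjusted p = 0.098) and between -0.30 and -0.18 in the other 3 comparisons.

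The brightest further members differed less from Col-0 than the 6 genes did, though LTI30 was below Col-0 in both mutants and both lights. The 6 genes were chosen for being lower in the mutants and these 4 by brightness. That they differ less therefore follows from the choice and supports nothing further. The dehydrins HIRD11 and LTI30 differed from Col-0 by between -0.17 and 0.05 and by between -0.25 and -0.06 over both mutants and lights, and the LEA genes AT2G44060 and AT2G23120 by between -0.03 and 0.11 and by between -0.18 and 0.16. None of these 4 was called. LTI30, which like COR47 is a cold-induced dehydrin, had 566, 508 and 426 in sav1-1, 480, 463 and 461 in sav3-2 and 520, 603 and 441 in Col-0 after low R:FR, with overlapping groups. In white light LTI30 had 597, 541 and 455 in sav1-1, 487, 424 and 553 in sav3-2 and 577, 621 and 548 in Col-0. Its lowest difference, -0.25 in sav3-2 in white light, stood beside -0.36 for COR47 there (SE 0.13 for COR47). COR27 and COR28, cold-induced regulators tied to the circadian clock, differed by 0.01 to 0.37 and by -0.23 to 0.10 and were not called. For the response to low R:FR, 0 of the 19 were called in sav1-1, sav3-2 and Col-0. At an unadjusted p under 0.05 there were 2, 1 and 0 of the 19, beside 1456, 1428 and 1391 of the 17125 kept probe sets. Genes of abscisic acid synthesis, abscisic acid signalling and dehydration on 3 further lists of 12, 29 and 19 genes are not named by a probe set used here and were not analysed.

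COR15B is a related gene that lies next to COR15A in the TAIR10.1 gene order. The sequences of the pair were not compared here. Transcripts of one may be read by the probe set of the other, so their values are uncertain as separate measurements. COR15B had 101, 51.9 and 55.7 in sav1-1, 60.2, 36.6 and 45.1 in sav3-2 and 257, 63.9 and 72.0 in Col-0 after low R:FR. In white light it had 124, 41.0 and 98.2 in sav1-1, 75.7, 69.5 and 51.3 in sav3-2 and 319, 47.1 and 88.2 in Col-0. The Col-0 replicates 1 were the highest in both lights, as they were for COR15A, and the groups overlapped except for sav3-2 and Col-0 after low R:FR. The differences from Col-0 were -0.58 and -0.42 in sav1-1 and -0.99 and -0.69 in sav3-2 after low R:FR and in white light, with adjusted p-values of 0.82, 0.92, 0.44 and 0.80. COR47 has the dehydrin gene ERD10 as a neighbour, which was not analysed here.

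The probe sets most like the 6 genes were ranked by Pearson r over the 18 arrays with the mean z-score of the 6, among probe sets naming 1 gene. The 10 highest were AT3G48970 (r 0.92), AT3G46490 (0.91), AT5G44440 (0.90), AT1G12080 (0.88), ACYB-2 (0.86), AT3G16850 (0.83), AT1G22910 (0.83), AT1G72230 (0.81), AT5G61660 (0.81) and AT2G25890 (0.81). Because the score is itself a contrast of mutants and Col-0, a high r largely restates that contrast. Over deviations from group means the r was 0.75 for AT3G48970 and 0.49 for AT1G72230 but 0.00 for AT5G44440 and -0.64 for AT5G61660, so AT3G48970 alone of the 10 kept an r above 0.5. Its log2 mean was 6.33 in sav1-1, 6.25 in sav3-2 and 7.05 in Col-0 (6 arrays each). AT2G25890, an oleosin gene of the kind found on oil bodies, stood at 4.51 in sav1-1, 4.61 in sav3-2 and 5.28 in Col-0, near the lower end of the scale.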

How the data were processed

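Total RNA was hybridised to Affymetrix arrays, 18 in 6 groups of 3. The authors deposited 1 linear intensity per probe set and array, made with GCRMA per the submitters' processing notes; its version and settings are not given in the sources used here. Since the deposited intensities have unequal array medians, 22746 non-control probe sets (64 controls left out) were quantile normalized, a step that hides changes shared by most genes. Kept were 17125 probe sets with log2 intensity above 4 on at least 3 arrays. A group means model on log2(intensity + 16) gave 12 two-sided comparisons (limma 3.58.1, R 4.3.3; lmFit and trended eBayes), with Benjamini-Hochberg adjustment over all kept probe sets and calls at an adjusted p under 0.05. Detection calls were not used, and precision is limited by the number of arrays.

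The 6 genes and all lists were chosen with earlier results of these data known. All 6 genes were named, along with listed genes called in a mutant or shade comparison, up to 4 further genes per list by mean brightness, and the 10 probe sets most like the 6 genes by Pearson r. Gene names came from the platform annotation, updated through TAIR10.1; 13513 probe sets name 1 gene, 503 several, and 8730 are unnamed here, and 13436 of the first matched the gene table. A gene on several probe sets was taken from the brightest. No coordinates or sequences are given.

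Replicate numbers come from the sample titles. The main fits, with their SEs, intervals and p-values, left the number out in every comparison, and the replicate block was an alternative only. A comparison was counted as paired by number where all 3 same-numbered pairs deviated together with r over 0.1. That held for the shade responses of sav1-1 (lowest r 0.108) and sav3-2 (0.105), sav1-1 against sav3-2 in white light (0.127) and after low R:FR (0.157), sav3-2 against Col-0 (0.105 and 0.101) and sav1-1 against Col-0 in white light (0.163). It did not hold for the shade response of Col-0 (0.0714), sav1-1 against Col-0 after low R:FR (0.0963) or the interactions. Alternatives were the values as deposited, median scaling, a pseudocount of 1, no filter, the replicate block, and leaving out each array; leaving out all arrays of a number, the r over deviations from group means, and the related genes above the filter on all arrays, were added after seeing the data. The fit was tested on simulated data for sav3-2 against Col-0 in white light, with 200 of 17125 probe sets changed. Recovered were 30% of changes of 0.5 in log2, 90% of 1, 96% of 1.5 and 100% of 2, and 10 of 168 calls were false. These shares cover the changed probe sets as a whole. They need not hold for LEA4-5, AT3G02480 and COR15A, whose spread within groups was at the 97.1 percentile or higher. The other comparisons were not simulated, and the interactions have larger SEs. For LEA4-5 the SE was 0.404 in the interactions and 0.285 in sav3-2 against Col-0 in white light.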

Additional observations from a re-analysis of the deposited data

How the results depend on the processing

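None of the 6 genes was called in any of the 8 tested comparisons under any of 26 alternatives; of their 1248 alternative values 138 changed sign, all in estimates that were not called. The 624 alternative values of the mutants against Col-0 never changed sign. The 6 genes were chosen for being lower in the mutants on these same arrays, so the kept sign is no independent support. Of the 624 values, 13 moved by more than the spread between replicates. These were mostly LEA4-5 and AT3G02480 with a pseudocount of 1 and COR47 without normalization between arrays. The limits are 3 arrays a group, LEA4-5 close to the floor of the scale in the mutants, and COR15A and AT3G02480 with a spread within groups above that of 99% of probe sets; the causes of the shifts below were not tested.

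With the values as deposited, the counts of all probe sets called fell by over 1.5 times for the shade responses of sav1-1 (145), sav3-2 (79) and Col-0 (85), for sav1-1 against sav3-2 after low R:FR (96), sav3-2 against Col-0 after low R:FR (83) and in white light (46), sav1-1 against Col-0 in white light (7) and the sav3-2 against Col-0 interaction (3). On that scale medians over all probe sets shifted by up to 0.27, and 1 related gene was called in sav1-1 against sav3-2 and in sav3-2 against Col-0, both in white light; the gene of the second, AT3G15670, which the replicate block calls there too, passed the filter only through Col-0, so that call is no test. A pseudocount of 1 gave 2 calls for the sav3-2 against Col-0 interaction, and no filter gave 23 for sav1-1 against Col-0 after low R:FR.

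With the replicate block, calls numbered 500, 277 and 356 for the shade responses of sav1-1, sav3-2 and Col-0, 404 and 274 for sav1-1 against sav3-2 after low R:FR and in white light, 156 and 92 for sav1-1 and 397 and 207 for sav3-2 against Col-0 in those lights, and 11 for the sav1-1 against sav3-2 interaction. The block added 1 related gene each to the shade response of sav1-1, sav1-1 against sav3-2 in white light and both mutants against Col-0 in white light, and it changed no call of the 6 genes. Of the 18 arrays 17 correlated best with an array of their own number, a hint from the data and not from the design.

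Leaving out 1 array or all arrays of 1 number gave between 101 and 344 calls for the shade response of sav1-1, 23 to 259 for sav3-2 and 60 to 251 for Col-0. The ranges were 41 to 251 and 15 to 180 for sav1-1 against sav3-2 after low R:FR and in white light, 1 to 66 and 0 to 66 for sav1-1 against Col-0, and 41 to 257 and 11 to 167 for sav3-2 against Col-0. For the interactions they were 0 to 2 for sav1-1 against Col-0, 3 to 9 for sav1-1 against sav3-2 and 1 to 10 for sav3-2 against Col-0. Related genes called ran from 0 to 1 in the shade response of sav1-1, in sav1-1 against sav3-2 in either light and in sav1-1 against Col-0 after low R:FR. The r of the 10 probe sets most like the 6 genes stayed between 0.60 (ACYB-2) and 0.97 (AT3G48970) over 25 alternatives.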
